A study of Mus musculus with 6 samples.

Results

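Histone lysine methyltransferases and demethylases, the enzymes that write and erase methyl groups on lysines of the histone tails, were followed in mouse pancreatic tumours and normal pancreas. The family was taken by gene symbol, as every row of either tumour table whose name begins with Kmt, Kdm, Setd, Suv39h, Ehmt, Ezh, Nsd, Smyd, Dot1l or Ash1l (or an older name of these). This gave 48 genes of the 27179 that were counted, and all 48 passed the filter on low counts. RNA was sequenced from orthotopic tumours of the PANC02-H7 line (H7 tumours, n = 2), orthotopic tumours of the UN-KC-6141 line (UNKC tumours, n = 2) and whole normal pancreas (n = 2). Both lines are mouse pancreatic carcinoma lines that were injected surgically into the pancreas of C57BL/6 mice, and the tumours were removed 20 days later. Normal pancreas was from C57BL/6 mice, and no mouse received a treatment. Each tumour group comes from 1 transplanted line, so a difference from normal pancreas covers the line, the host cells in the tumour and the loss of pancreas tissue together. The labels do not tell which mouse gave which library, so p-values measure only the spread between these samples.

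Reads counted in genes numbered 33332516 and 36307030 for H7 tumours, 40507546 and 38728423 for UNKC tumours, and 12077320 and 8204225 for normal pancreas. A few abundant RNAs (ribosomal RNA, Rn45s, Lars2 and 1 unnamed gene) took 20.2% to 28.3% of tumour reads and 92.6% and 91.4% of normal reads, so that 891909 and 706236 reads were left in normal pancreas. The replicates of normal pancreas were also less alike (r = 0.801 across genes on the log2 scale) than those of H7 (0.967) or UNKC tumours (0.949). The 10 acinar markers summed to 32.8 and 40.9 CPM in H7 tumours, 14.7 and 4.58 CPM in UNKC tumours and 13635 and 12962 CPM in normal pancreas. The 6 duct and epithelial markers summed to 411 and 393 CPM in H7 tumours, 1100 and 924 CPM in UNKC tumours and 223 and 156 CPM in normal pancreas. The 8 macrophage markers summed to 924 and 755 CPM in H7 tumours, 432 and 421 CPM in UNKC tumours and 99.5 and 184 CPM in normal pancreas, and 8 and 6 of them rose. The 7 fibroblast markers summed to 955 and 1800 CPM in H7 tumours, 2500 and 4146 CPM in UNKC tumours and 357 and 551 CPM in normal pancreas, and 5 and 4 of them rose. The 8 B cell markers summed to 1.45 and 1.26 CPM in H7 tumours, 8.56 and 4.13 CPM in UNKC tumours and 67.1 and 104 CPM in normal pancreas, and 8 and 7 of them fell. Levels are in CPM, read counts divided by a library size that was scaled with trimmed-mean (TMM) factors. The second library of each tumour stood apart by its skeletal muscle markers, with 109 and 47968 reads in the H7 libraries, 102 and 187037 in the UNKC libraries and 16 and 5 in the normal ones. Counts without those libraries are given where they are used.

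Methylation of histone lysines works as a set of marks that other proteins read. Methylation of H3K4 marks promoters and enhancers in use and is written by the SETD1 and MLL (Kmt2) enzymes around a core that includes WDR5, while LSD1 (Kdm1a) and the KDM5 enzymes remove it. H3K27 methylation, written by EZH1 or EZH2 in Polycomb repressive complex 2 (PRC2), and H3K9 methylation accompany silenced genes, and H3K36 and H3K79 methylation accompany transcribed gene bodies. Mutations in the MLL-type enzymes recur in human pancreatic cancer, and the study itself was about WDR5 and H3K4 methylation in pancreatic tumours.

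More of these enzymes were lower than higher in both tumours. In H7 tumours against normal pancreas 6 of the 48 rose and 21 fell, at an adjusted p under 0.05 in edgeR's quasi-likelihood test, where 29.6% of all 16306 tested genes rose and 21.9% fell. In UNKC tumours 4 rose and 24 fell, against 29.1% and 19.3% of all tested genes. The median log2 fold change of the 48 genes was -0.45 in H7 tumours and -0.66 in UNKC tumours, and that of all tested genes was 0.34 and 0.42. Both comparisons use the same 2 normal libraries, so they are not independent of each other. Side by side, 21 genes fell in both, 3 rose in both (Ezh2, Ehmt2 and Kdm1a) and 17 passed in neither. Nsd2, Kdm5b and Kmt5a passed as rises in the H7 and not in the UNKC comparison, Kdm5a in the UNKC and not in the H7 comparison, and Ezh1, Kdm2b and Kmt5c passed as falls in the UNKC and not in the H7 comparison.

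Falls outnumbered rises on scales that follow the bulk of the genes. The split of rises to falls in H7 tumours was 1 to 30 with upper-quartile factors (22.9% and 27% of all genes), 3 to 23 with median-ratio (RLE) factors (26.4% and 24.2%) and 5 to 29 in DESeq2 (29.7% and 29%). In UNKC tumours it was 2 to 29 (22.7% and 24.4%), 2 to 27 (25.3% and 22.1%) and 3 to 29 (28.7% and 26.3%). On total counts, which include the ribosomal RNA, the median of all genes moved to 3.61 in H7 and 3.77 in UNKC tumours, 43 rose and 0 fell in H7 tumours (77.9% and 3.21% of all genes) and 44 rose and 0 fell in UNKC tumours (82.8% and 1.91%), so that all 21 and all 24 falls took a positive sign. The falls are thus changes relative to the bulk of the genes. Without the muscle-rich library, 3 rose and 17 fell in H7 tumours (21.1% and 15.7% of all genes) and 3 rose and 22 fell in UNKC tumours (23.1% and 15.1%). In bulk tissue fewer cells of a type and less RNA per cell cannot be told apart, and the part that the acinar, macrophage, fibroblast and B cell content has in these changes was not tested.

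Some of these calls rested on single libraries. Among the H7 falls, Ash1l lost its call without the second H7 library (log2 fold change -0.96, adjusted p = 0.0504) and Setd2 lost it without the same library (-0.54, adjusted p = 0.0604). Kdm3b lost it without either H7 library (-0.59 to -0.51), and Kdm4c without the second H7 library, either UNKC library or the first normal library (-0.65 to -0.44). Among the UNKC falls, Setd2 (-0.64, adjusted p = 0.0562) and Kdm2b (-0.85, adjusted p = 0.0674) lost the call without the first UNKC library, Kmt5c without either UNKC library or the first normal library (-1.05 to -0.85), and Kdm3b without any one of the 4 tumour libraries (-0.51 to -0.46). Among the H7 rises, Ehmt2 (0.73, adjusted p = 0.0561) and Nsd2 (0.87, adjusted p = 0.0611) lost the call without the first H7 library, and Kmt5a without any one of the 4 tumour libraries (0.95 to 1.06). Kdm1a (0.46 to 0.63) and Kdm5b (0.40 to 0.67) lost it without any one tumour library or the second normal library. Among the UNKC rises, Ehmt2 lost it without the first H7 library or either UNKC library (0.57 to 0.64), and Kdm5a without any one of the 4 tumour libraries (0.34 to 0.46). None of these listed calls turned its sign in the fits that left out 1 library.

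**Figure D1:**
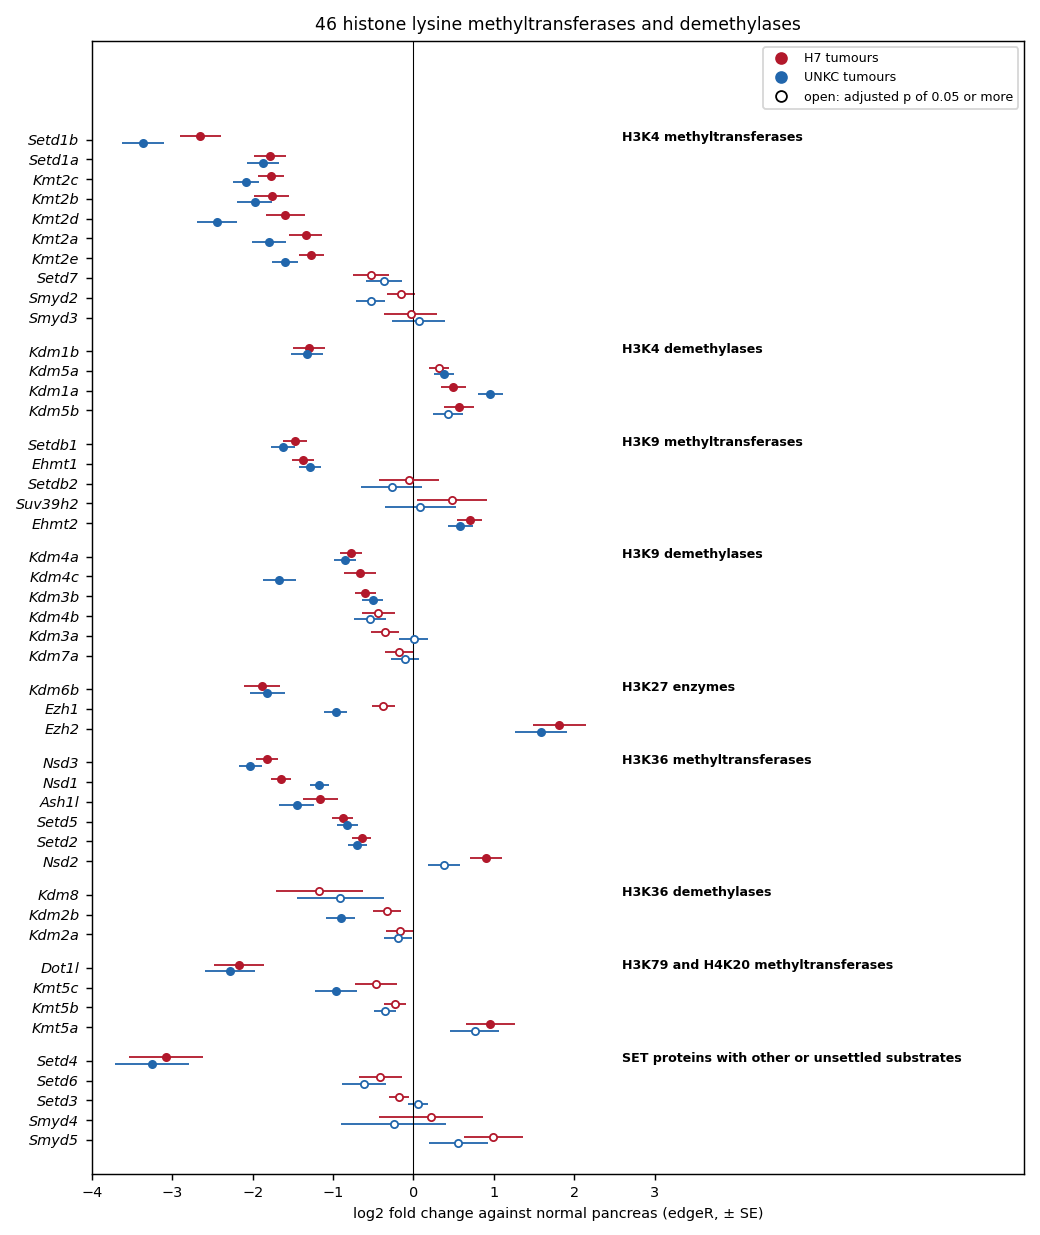
Log2 fold change against normal pancreas (horizontal axis, edgeR with TMM scaling, bars are SE) of 46 enzymes in H7 tumours (red) and UNKC tumours (blue), by the mark they act on; filled points have an adjusted p under 0.05, and Smyd1 and Kdm5d, which had no read in normal pancreas, are left out. The 7 filled H3K4 methyltransferases lie left of 0 in both tumours and Ezh2 lies farthest right; on total counts all the falls turn to the right of 0.

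The H3K4 methyltransferases, the class with the most genes, also gave the most falls. Of the 11 genes in the class, Kmt2e included, 7 fell and none rose in each tumour (on total counts all 7 turn positive, together with most genes). Of all tested genes 21.9% fell in H7 and 19.3% in UNKC tumours, and of the 6 H3K36 methyltransferases 5 fell in each. The median log2 fold change of the H3K4 methyltransferases was -1.34 in H7 and -1.79 in UNKC tumours. Setd1b (gene ID 208043, chr5:123142040-123168630), the catalytic subunit of a SETD1 complex that methylates H3K4 broadly at promoters, had 15.5 and 10.5 CPM in H7 tumours, 7.16 and 8.72 CPM in UNKC tumours and 91.2 and 72.0 CPM in normal pancreas. Both tumours lay far below normal pancreas, with log2 fold changes of -2.65 ± 0.26 (adjusted p = 0.000541) in H7 and -3.36 ± 0.26 (adjusted p = 0.000312) in UNKC tumours. In the authors' deposited table the same changes were -2.78 and -3.54. Its sister enzyme Setd1a had 19.5 and 14.4 CPM in H7 tumours, 14.5 and 17.4 CPM in UNKC tumours and 59.7 and 57.3 CPM in normal pancreas. It fell by less, at -1.79 ± 0.20 (adjusted p = 0.000894) in H7 and -1.87 ± 0.20 (adjusted p = 0.000831) in UNKC tumours.

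The MLL-type genes fell in both tumours on the TMM scale. With the trend of fold change with gene length removed, Kmt2d (-0.58, adjusted p = 0.0956) and Kmt2a (-0.34, adjusted p = 0.215) no longer passed in H7 tumours, and the class counted 5 falls there and 8 in UNKC tumours. Kmt2d (gene ID 381022, chr15:98831669-98874077), which with Kmt2c places monomethyl H3K4 at enhancers, had 152 and 101 CPM in H7 tumours, 59.4 and 80.7 CPM in UNKC tumours and 367 and 396 CPM in normal pancreas. Its change was -1.59 ± 0.25 (adjusted p = 0.00293) in H7 and -2.44 ± 0.25 (adjusted p = 0.000756) in UNKC tumours, and no tumour library reached a normal one. Kmt2c (gene ID 231051, chr5:25271795-25498855) had 109 and 87.2 CPM in H7 tumours, 73.9 and 84.2 CPM in UNKC tumours and 345 and 324 CPM in normal pancreas, a change of -1.77 ± 0.16 (adjusted p = 0.000432) and -2.08 ± 0.16 (adjusted p = 0.000298). Kmt2b, which acts at promoters of developmental genes, had 31.1 and 22.1 CPM in H7 tumours, 21.3 and 24.5 CPM in UNKC tumours and 99.5 and 80.6 CPM in normal pancreas. Its changes were -1.76 ± 0.22 (adjusted p = 0.00127) and -1.98 ± 0.22 (adjusted p = 0.000928). Kmt2a, the MLL gene of leukaemia translocations, had 108 and 72.9 CPM in H7 tumours, 62.6 and 70.0 CPM in UNKC tumours and 223 and 236 CPM in normal pancreas. It changed by -1.34 ± 0.21 (adjusted p = 0.00295) in H7 and -1.79 ± 0.21 (adjusted p = 0.00116) in UNKC tumours, and the groups did not overlap. Kmt2e, an MLL relative thought to lack methyltransferase activity of its own, had 78.5 and 64.4 CPM in H7 tumours, 56.1 and 57.7 CPM in UNKC tumours and 188 and 156 CPM in normal pancreas, with changes of -1.27 ± 0.16 (adjusted p = 0.00133) and -1.60 ± 0.16 (adjusted p = 0.000672).

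The members of this class that did not pass are not MLL or SETD1 enzymes. Setd7, which also methylates many proteins other than histones, had 41.5 and 43.1 CPM in H7 tumours, 42.6 and 52.2 CPM in UNKC tumours and 73.6 and 48.2 CPM in normal pancreas, with changes of -0.53 ± 0.22 (adjusted p = 0.0985) and -0.36 ± 0.22 (adjusted p = 0.233). Smyd2 (-0.16 ± 0.18, adjusted p = 0.499 in H7 and -0.53 ± 0.18, adjusted p = 0.0509 in UNKC tumours) and Smyd3 (-0.04 ± 0.33, adjusted p = 0.936, and 0.07 ± 0.33, adjusted p = 0.881) also missed the threshold, and Smyd1 is described with the muscle genes. The promoters of 2 of the falling enzymes are printed as examples of GC-rich promoters in this class, in which Setd1a, Setd7 and Smyd1 held no GC box. They are the 250 bases before a RefSeq start site of each gene (build GRCm38.p6, both on the minus strand). The windows are chr5:25498784-25499033 for Kmt2c and chr15:98871206-98871455 for Kmt2d, with matches to the GC box letters GGGCGG on either strand in capitals. The Kmt2d window lies inside the gene span given above, so its start site is not the outermost one of the gene. The Kmt2c window overlaps its gene span in part.
Kmt2c promoter: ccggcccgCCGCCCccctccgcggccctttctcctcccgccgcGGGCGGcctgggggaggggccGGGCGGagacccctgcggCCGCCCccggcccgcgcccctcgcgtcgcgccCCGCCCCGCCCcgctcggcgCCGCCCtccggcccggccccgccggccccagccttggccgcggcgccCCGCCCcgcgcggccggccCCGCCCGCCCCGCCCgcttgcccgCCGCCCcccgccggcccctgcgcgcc
Kmt2d promoter: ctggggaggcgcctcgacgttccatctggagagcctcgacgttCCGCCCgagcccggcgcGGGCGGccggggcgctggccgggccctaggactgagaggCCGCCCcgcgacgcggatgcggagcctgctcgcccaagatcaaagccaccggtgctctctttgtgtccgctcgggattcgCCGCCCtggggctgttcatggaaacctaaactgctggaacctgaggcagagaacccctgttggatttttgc
Overlapping matches included, Kmt2c held 12 GC boxes and 48 CG dinucleotides, and Kmt2d 4 and 26. Over the 46 promoters found for 35 of the 48 genes, 65.2% held a GC box, against 32.7% of all 32851 promoters of the same length, and the median number of CG was 22.5 against 6. A match of letters is a description and says nothing about binding.

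**Figure D2:**
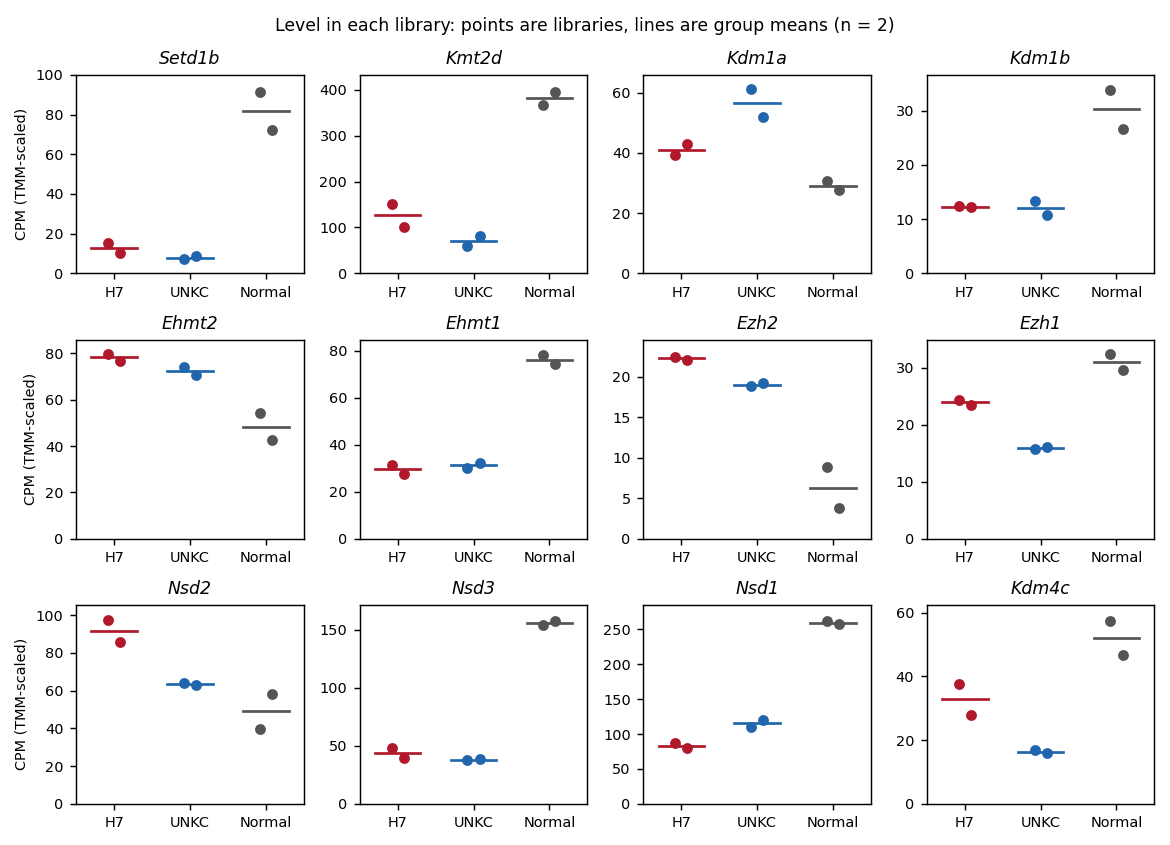
Level of 12 enzymes in each library (vertical axis, CPM after TMM scaling, each panel from 0), with 1 point per library and a line at the group mean (n = 2). In the Setd1b, Kmt2d, Nsd3, Nsd1 and Ehmt1 panels every tumour library lies under both normal ones, and in the Ezh2, Ehmt2 and Kdm1a panels every tumour library lies above both; on total counts these falls take a positive sign.

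The non-catalytic subunits that work with these enzymes are given by their counts, beside which 29.6% of all tested genes rose and 21.9% fell in H7 tumours, and 29.1% and 19.3% in UNKC tumours. Of 12 H3K4 complex subunits, 6 rose and 3 fell in H7 tumours and 4 rose and 3 fell in UNKC tumours. The same shares of all genes stand beside every later count of a class or list, and a small count near them is a description of those genes alone. Wdr5, the core subunit named in the study, had 18.9 and 20.1 CPM in H7 tumours, 18.4 and 19.2 CPM in UNKC tumours and 6.48 and 14.8 CPM in normal pancreas. Its changes of 0.88 ± 0.34 (adjusted p = 0.0726) and 0.83 ± 0.34 (adjusted p = 0.0914) did not pass. Dpy30, a core subunit needed for full activity, rose by 1.86 ± 0.32 (adjusted p = 0.00451) in H7 and 1.54 ± 0.32 (adjusted p = 0.00992) in UNKC tumours, and Ash2l, another core subunit, by 1.32 ± 0.34 (adjusted p = 0.0195) and 1.62 ± 0.34 (adjusted p = 0.00949). Wdr82, a subunit specific to SETD1 complexes, rose by 1.34 ± 0.21 (adjusted p = 0.00284) and 1.57 ± 0.21 (adjusted p = 0.00172). Psip1, which tethers the MLL complex to chromatin, had 116 and 90.3 CPM in H7 tumours, 35.6 and 33.9 CPM in UNKC tumours and 28.2 and 15.7 CPM in normal pancreas. It rose in H7 tumours (2.23 ± 0.29, adjusted p = 0.00144), while its UNKC change of 0.66 ± 0.28 did not pass. Cxxc1, the CpG-binding subunit of SETD1 complexes, had 16.5 and 16.8 CPM in H7 tumours, 17.1 and 19.4 CPM in UNKC tumours and 134 and 117 CPM in normal pancreas. It fell by the most in this list, at -2.92 ± 0.15 (adjusted p = 0.000133) and -2.79 ± 0.15 (adjusted p = 0.000149), alongside Paxip1 of the Kmt2c and Kmt2d complexes (-2.17 ± 0.34, adjusted p = 0.00313, and -2.17 ± 0.34, adjusted p = 0.00329).

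Of the 5 enzymes that remove H3K4 methylation, 2 rose and 1 fell in each tumour, a share of falls near that of all genes (21.9% in H7 and 19.3% in UNKC tumours). Kdm1a (gene ID 99982, chr4:136550533-136602787), or LSD1, the demethylase of the CoREST repressor complex, had 39.2 and 43.0 CPM in H7 tumours, 61.2 and 51.9 CPM in UNKC tumours and 30.6 and 27.7 CPM in normal pancreas. It rose by 0.50 ± 0.15 (adjusted p = 0.0367) in H7 tumours, where 6 of 20 other settings kept the call and 1 other turned its sign, and by 0.96 ± 0.15 (adjusted p = 0.00352) in UNKC tumours, where 19 of 20 kept it. Its relative Kdm1b, which acts in gene bodies and in oocytes, had 12.4 and 12.2 CPM in H7 tumours, 13.3 and 10.7 CPM in UNKC tumours and 33.8 and 26.7 CPM in normal pancreas. It fell by a similar amount in both tumours, at -1.30 ± 0.20 (adjusted p = 0.00281) and -1.33 ± 0.20 (adjusted p = 0.00274). Kdm5a and Kdm5b remove trimethyl H3K4 at promoters. Kdm5a had 83.2 and 77.9 CPM in H7 tumours, 87.7 and 80.5 CPM in UNKC tumours and 67.1 and 62.5 CPM in normal pancreas, and Kdm5b had 70.9 and 64.2 CPM in H7 tumours, 66.0 and 56.7 CPM in UNKC tumours and 52.3 and 38.6 CPM in normal pancreas. Kdm5a passed in UNKC tumours (0.38 ± 0.12, adjusted p = 0.0492) and not in H7 tumours (0.31 ± 0.12, adjusted p = 0.0809), and Kdm5b passed in H7 tumours (0.57 ± 0.19, adjusted p = 0.0434) and not in UNKC tumours (0.43 ± 0.18, adjusted p = 0.104). Both calls were kept in 5 of 20 other settings and each turned its sign in 1, with the values near 0 there. Among 9 CoREST subunits, 2 rose and 4 fell in H7 tumours and 1 rose and 4 fell in UNKC tumours, with Hdac2 (1.24 ± 0.16, adjusted p = 0.00140, and 1.25 ± 0.16, adjusted p = 0.00145) among the rises. Falls outnumbered rises in this list, and its median log2 fold change was -0.34 in H7 and -0.48 in UNKC tumours.

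The shares of the H3K4 methyltransferase and demethylase classes can be given within a library, which needs no scaling between libraries. The trend of fold change with gene length remains in these shares and was not removed. Kmt2e counts among the methyltransferases, and Kdm5c lies outside the 48 genes. H3K4 methyltransferases made up 19.8% and 18.2% of the summed reads per kilobase of the 48 genes in H7 tumours and 15.1% and 18.3% in UNKC tumours, against 29.7% and 29.2% in normal pancreas. H3K4 demethylases made up 11.4% and 12.5% in H7 tumours and 15.8% and 13.2% in UNKC tumours, against 7.09% and 6.37% in normal pancreas. A share also moves with the total of the 48 genes. On the TMM scale that total was 306 and 275 CPM per kilobase in H7 tumours, 270 and 275 in UNKC tumours and 458 and 428 in normal pancreas. The H3K4 demethylases alone summed to 34.7 and 34.4 in H7 tumours, 42.7 and 36.2 in UNKC tumours and 32.4 and 27.3 in normal pancreas. H3K36 methyltransferases held a smaller share in all tumour libraries (16.2% to 17.2%) than in normal pancreas (21.1% and 21.2%). A larger share in all tumour libraries was not particular to the H3K4 demethylases. It was also held by the H3K27 enzymes, H3K36 demethylases, H3K9 methyltransferases, H3K79 and H4K20 methyltransferases and the SET proteins with other substrates. With 2 libraries in each group an exact two-sided permutation test cannot go below p = 0.333, so these shares are given without a test.

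**Figure D3:**
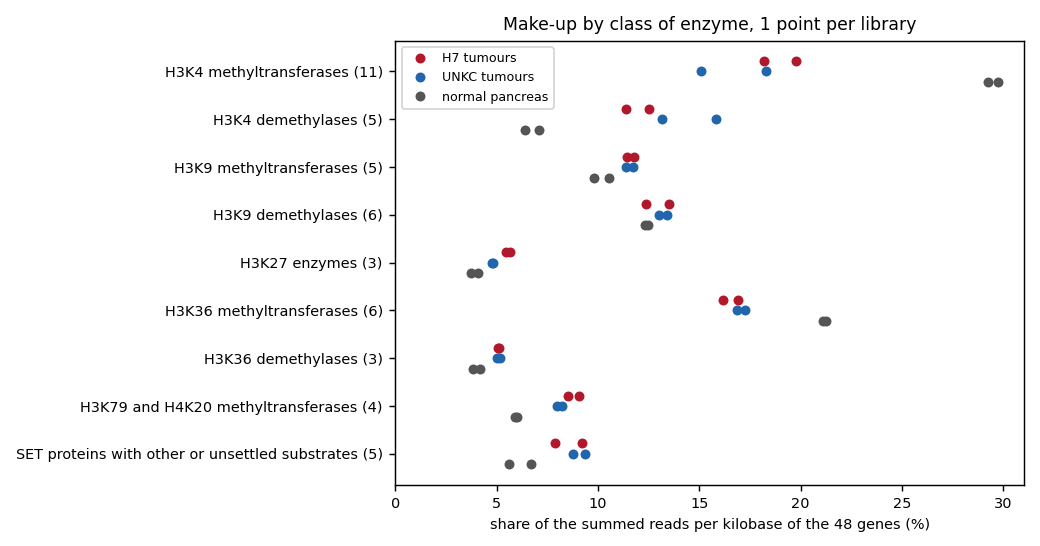
Share of the summed reads per kilobase of the 48 enzymes that each class holds (horizontal axis, %), with 1 point per library for H7 tumours, UNKC tumours and normal pancreas and the number of genes in brackets. The H3K4 methyltransferases hold 15.1% to 19.8% over the 4 tumour libraries, to the left of normal pancreas (29.2% and 29.7%). The H3K4 demethylases hold 11.4% to 15.8%, to the right of normal pancreas (6.37% and 7.09%). A share also moves with the summed level of all 48 genes, which was lower in the tumours on the TMM scale. The trend of fold change with gene length was not removed from these shares.

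The 2 methyltransferases of H3K27 moved apart. Ezh2 (gene ID 14056, chr6:47530274-47595270), the PRC2 methyltransferase of dividing cells, had 22.5 and 22.1 CPM in H7 tumours, 18.8 and 19.2 CPM in UNKC tumours and 8.79 and 3.82 CPM in normal pancreas. It rose by more than any other of the 48 genes with reads in every group, at 1.81 ± 0.33 (adjusted p = 0.00512) in H7 and 1.59 ± 0.33 (adjusted p = 0.00905) in UNKC tumours. These levels rest on 1551 and 1718 reads in H7 tumours, 1699 and 1642 in UNKC tumours and 19 and 8 in normal pancreas. With the length trend removed, Ezh2 stood at 1.81 and Nsd2 at 1.83 in H7 tumours, and at 1.59 and 1.13 in UNKC tumours. Ezh1 (gene ID 14055, chr11:101191115-101226463), the PRC2 methyltransferase of resting cells, had 24.4 and 23.5 CPM in H7 tumours, 15.7 and 16.0 CPM in UNKC tumours and 32.4 and 29.6 CPM in normal pancreas. It fell in UNKC tumours (-0.97 ± 0.14, adjusted p = 0.00258), and the H7 change of -0.37 ± 0.14 (adjusted p = 0.0706) did not pass, although both H7 libraries lay below both normal ones. Kdm6b, a demethylase that removes H3K27 methylation and responds to inflammation, had 16.4 and 11.1 CPM in H7 tumours, 14.0 and 14.8 CPM in UNKC tumours and 51.4 and 50.1 CPM in normal pancreas. It fell in both, at -1.88 ± 0.22 (adjusted p = 0.00101) and -1.82 ± 0.22 (adjusted p = 0.00124).

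The 250 bases before a RefSeq start site of Ezh2 (chr6:47595031-47595280) and of Ezh1 (chr11:101226464-101226713) are shown as further examples (GRCm38.p6, both on the minus strand). Most of the Ezh2 window lies inside the gene span given above, and the Ezh1 window lies outside its gene span. Capitals mark any match, on either strand, to the CCAAT box, the GC box, the cell cycle homology region letters TTTGAA, the E2F letters TTCCCGC and TTGGCGC or the ETS letters CCGGAAG.
Ezh2 promoter: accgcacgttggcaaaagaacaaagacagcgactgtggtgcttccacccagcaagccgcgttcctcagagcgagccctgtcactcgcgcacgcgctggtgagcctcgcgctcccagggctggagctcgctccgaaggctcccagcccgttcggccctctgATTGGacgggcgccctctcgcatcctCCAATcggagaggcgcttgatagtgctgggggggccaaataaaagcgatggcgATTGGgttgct
Ezh1 promoter: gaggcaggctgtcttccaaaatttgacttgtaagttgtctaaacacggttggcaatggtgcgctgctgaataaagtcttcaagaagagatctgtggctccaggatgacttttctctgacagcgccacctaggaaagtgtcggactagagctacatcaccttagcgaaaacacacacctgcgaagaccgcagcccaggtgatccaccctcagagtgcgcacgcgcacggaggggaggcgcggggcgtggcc
The Ezh2 window held 3 CCAAT boxes and 23 CG, and the Ezh1 window none of the motifs and 14 CG. CCAAT letters occurred in 41.3% of the member promoters and in 33.8% of all promoters, and their part in the changes of Ezh2 and Ezh1 was not tested.

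Of 10 PRC2 subunits, 5 rose and 2 fell in each tumour, where 29.6% of all tested genes rose and 21.9% fell in H7 tumours, and 29.1% and 19.3% in UNKC tumours. Suz12, a core subunit, had 55.1 and 53.8 CPM in H7 tumours, 41.1 and 39.6 CPM in UNKC tumours and 25.0 and 16.2 CPM in normal pancreas, and rose by 1.40 ± 0.21 (adjusted p = 0.00265) and 0.97 ± 0.21 (adjusted p = 0.0111). Rbbp4 (1.66 ± 0.14, adjusted p = 0.000353, and 1.75 ± 0.14, adjusted p = 0.000322) and Rbbp7 (3.04 ± 0.65, adjusted p = 0.00991, and 2.79 ± 0.65, adjusted p = 0.0143), histone-binding subunits shared with other complexes, also rose. The size of the Rbbp7 rise rests on 5 and 36 reads in normal pancreas (2.31 and 17.2 CPM). Eed, the core subunit that reads the H3K27 mark, did not pass (0.62 ± 0.29, adjusted p = 0.125, and 0.59 ± 0.29, adjusted p = 0.145). The accessory subunits Jarid2 (-2.59 ± 0.24, adjusted p = 0.000445, and -2.41 ± 0.23, adjusted p = 0.000595) and Phf1 (-2.08 ± 0.27, adjusted p = 0.00156, and -2.76 ± 0.28, adjusted p = 0.000687) fell in both tumours. The summed level of 12 proliferation genes moved with these rises, at 739 and 862 CPM in H7 tumours, 727 and 746 CPM in UNKC tumours and 121 and 129 CPM in normal pancreas. Of these 12, 12 rose in H7 and 11 in UNKC tumours, and their part in the rise of Ezh2 was not tested.

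Of the 6 H3K36 methyltransferases 5 fell in each tumour on the TMM scale (on total counts they turn positive), and Nsd2 did not. Nsd1 (gene ID 18193, chr13:55209782-55318325), which places dimethyl H3K36 between genes, had 86.6 and 79.3 CPM in H7 tumours, 111 and 120 CPM in UNKC tumours and 262 and 257 CPM in normal pancreas. Its changes were -1.65 ± 0.12 (adjusted p = 0.000262) in H7 and -1.17 ± 0.12 (adjusted p = 0.000756) in UNKC tumours. Nsd3 (gene ID 234135, chr8:25601601-25719667), a related enzyme that is amplified in some carcinomas, had 48.3 and 39.8 CPM in H7 tumours, 37.5 and 38.6 CPM in UNKC tumours and 154 and 157 CPM in normal pancreas. It was the steepest fall of the class, at -1.82 ± 0.14 (adjusted p = 0.000289) and -2.03 ± 0.14 (adjusted p = 0.000231), with nearly equal levels in the 2 normal libraries. Nsd2 (gene ID 107823, chr5:33820676-33897966), the H3K36 dimethyltransferase overexpressed in a subset of myelomas, had 97.5 and 85.5 CPM in H7 tumours, 64.0 and 63.2 CPM in UNKC tumours and 39.8 and 58.2 CPM in normal pancreas. It rose in H7 tumours (0.90 ± 0.20, adjusted p = 0.0111), and its UNKC change of 0.38 ± 0.20 (adjusted p = 0.170) did not pass.

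Setd2, the only enzyme known to give trimethyl H3K36 in most cells, had 104 and 93.3 CPM in H7 tumours, 93.1 and 97.6 CPM in UNKC tumours and 152 and 157 CPM in normal pancreas. Its falls were small, at -0.65 ± 0.12 (adjusted p = 0.00603) and -0.70 ± 0.12 (adjusted p = 0.00479), and with the length trend removed neither passed (0.05, adjusted p = 0.770 in H7 and -0.18, adjusted p = 0.260 in UNKC tumours). Ash1l, which opposes Polycomb silencing, had 100 and 77.2 CPM in H7 tumours, 69.9 and 74.9 CPM in UNKC tumours and 234 and 162 CPM in normal pancreas, and fell, at -1.16 ± 0.22 (adjusted p = 0.00609) and -1.45 ± 0.22 (adjusted p = 0.00285). Setd5, whose own activity on H3K36 is disputed, had 75.8 and 65.7 CPM in H7 tumours, 73.4 and 73.7 CPM in UNKC tumours and 134 and 126 CPM in normal pancreas, and fell, at -0.88 ± 0.13 (adjusted p = 0.00239) and -0.82 ± 0.13 (adjusted p = 0.00320). Of the 3 H3K36 demethylases, Kdm2b, a CpG-binding protein of a Polycomb complex, had 15.9 and 13.9 CPM in H7 tumours, 9.75 and 10.3 CPM in UNKC tumours and 19.9 and 17.7 CPM in normal pancreas. It fell in UNKC tumours (-0.91 ± 0.18, adjusted p = 0.00766) and not in H7 tumours (-0.33 ± 0.18, adjusted p = 0.170). Kdm2a and Kdm8 did not pass in either tumour, with changes from -1.17 (Kdm8, H7 tumours) to -0.17 (Kdm2a, H7 tumours).

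The H3K9 methyltransferases split between partners. Ehmt2 (gene ID 110147, chr17:34898463-34914073), or G9a, which works as a dimer with Ehmt1 to give dimethyl H3K9, had 80.0 and 76.8 CPM in H7 tumours, 74.3 and 70.5 CPM in UNKC tumours and 54.2 and 42.5 CPM in normal pancreas. It rose by 0.70 ± 0.15 (adjusted p = 0.0109) in H7 tumours, kept in 17 of 20 other settings, and by 0.58 ± 0.15 (adjusted p = 0.0222) in UNKC tumours, kept in 12 of 20. Ehmt1 (gene ID 77683, chr2:24790769-24919643), or GLP, had 31.4 and 27.7 CPM in H7 tumours, 30.1 and 32.3 CPM in UNKC tumours and 78.2 and 74.4 CPM in normal pancreas. It fell, at -1.37 ± 0.14 (adjusted p = 0.000594) and -1.29 ± 0.14 (adjusted p = 0.000780), so the 2 members of the dimer moved in opposite directions. Setdb1, which silences retroelements with Trim28, had 27.8 and 23.4 CPM in H7 tumours, 22.8 and 23.4 CPM in UNKC tumours and 67.6 and 74.4 CPM in normal pancreas, and fell, at -1.47 ± 0.15 (adjusted p = 0.000640) and -1.62 ± 0.15 (adjusted p = 0.000497). Setdb2 and Suv39h2 had few reads in normal pancreas (4 and 10 for Suv39h2) and passed in neither tumour.

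Of the 6 H3K9 demethylases, 3 fell and none rose in each tumour on the TMM scale (on total counts the 3 turn positive). Kdm4a, which also acts on H3K36, had 40.5 and 35.7 CPM in H7 tumours, 35.8 and 36.3 CPM in UNKC tumours and 68.5 and 62.0 CPM in normal pancreas. It fell, at -0.78 ± 0.14 (adjusted p = 0.00462) and -0.86 ± 0.14 (adjusted p = 0.00342). Kdm4c (gene ID 76804, chr4:74242497-74405864), a relative of Kdm4a, had 37.6 and 28.0 CPM in H7 tumours, 16.7 and 16.1 CPM in UNKC tumours and 57.4 and 46.8 CPM in normal pancreas and was lowest in UNKC tumours. Its changes were -0.67 ± 0.20 (adjusted p = 0.0315) in H7 and -1.67 ± 0.20 (adjusted p = 0.00125) in UNKC tumours. Kdm3b had 43.5 and 40.1 CPM in H7 tumours, 43.8 and 45.2 CPM in UNKC tumours and 60.6 and 65.8 CPM in normal pancreas, and its small falls were -0.60 ± 0.13 (adjusted p = 0.00978) and -0.51 ± 0.13 (adjusted p = 0.0190). Kdm3a, Kdm4b and Kdm7a did not pass, and their log2 changes lay between -0.54 and 0.00. Of the readers of H3K9 methylation and their corepressors, 4 of 8 rose in each tumour, and 2 fell in H7 and 3 in UNKC tumours. Uhrf1, which couples H3K9 methylation to DNA methylation in S phase, rose by 2.78 ± 0.21 (adjusted p = 0.000272) and 2.53 ± 0.21 (adjusted p = 0.000364), and Cbx5, or HP1 alpha, by 1.71 ± 0.13 (adjusted p = 0.000286) and 1.70 ± 0.13 (adjusted p = 0.000307). Mphosph8 of the HUSH silencing complex fell, at -2.40 ± 0.16 (adjusted p = 0.000186) and -2.63 ± 0.16 (adjusted p = 0.000168).

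Dot1l (gene ID 208266, chr10:80755101-80795461), the methyltransferase of H3K79, had 11.1 and 9.77 CPM in H7 tumours, 8.52 and 10.8 CPM in UNKC tumours and 33.3 and 60.6 CPM in normal pancreas. It fell, at -2.17 ± 0.31 (adjusted p = 0.00213) and -2.28 ± 0.31 (adjusted p = 0.00190), with a wide gap between the 2 normal libraries. Among 10 genes of the DOT1L complex and readers of H3K36 methylation, 3 rose and 5 fell in each tumour. The median log2 fold change of this list was -0.36 in H7 and -0.41 in UNKC tumours. Mllt3, or AF9, a DOT1L partner and one of the rises in H7 tumours, had 127 and 90.4 CPM in H7 tumours, 24.4 and 25.6 CPM in UNKC tumours and 27.8 and 13.4 CPM in normal pancreas. Mllt3 rose in H7 tumours (2.40 ± 0.35, adjusted p = 0.00233) and stood at 0.28 ± 0.34 (adjusted p = 0.525) in UNKC tumours. Kmt5a, the H4K20 monomethyltransferase active in mitosis, had 41.6 and 43.8 CPM in H7 tumours, 37.0 and 37.5 CPM in UNKC tumours and 29.6 and 14.3 CPM in normal pancreas. It rose in H7 tumours (0.96 ± 0.31, adjusted p = 0.0417, kept in 9 of 20 other settings), and the UNKC change was 0.76 ± 0.31 (adjusted p = 0.0882). Kmt5c, which adds further methyl groups to H4K20, had 8.28 and 6.34 CPM in H7 tumours, 4.81 and 5.52 CPM in UNKC tumours and 10.6 and 9.54 CPM in normal pancreas, fell in UNKC tumours (-0.97 ± 0.26, adjusted p = 0.0242) and did not pass in H7 tumours (-0.47 ± 0.26, adjusted p = 0.182). Its relative Kmt5b did not pass in either (-0.23 ± 0.14, adjusted p = 0.219, and -0.35 ± 0.14, adjusted p = 0.0844).

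Of 5 SET proteins with other or unsettled substrates only Setd4 passed. Setd4 had 0.739 and 0.642 CPM in H7 tumours, 0.665 and 0.562 CPM in UNKC tumours and 7.41 and 4.29 CPM in normal pancreas, on 51 and 50 reads in H7 tumours, 60 and 48 in UNKC tumours and 16 and 9 in normal pancreas. Its changes of -3.08 ± 0.46 (adjusted p = 0.00255) and -3.25 ± 0.46 (adjusted p = 0.00225) were among the largest of the family. Setd3, an actin histidine methyltransferase, did not pass, with changes of -0.19 ± 0.12 (adjusted p = 0.260) and 0.06 ± 0.12 (adjusted p = 0.721). Setd6, Smyd4 and Smyd5 did not pass, with changes between -0.61 and 0.99. Of 13 further lysine methyltransferases and demethylases whose names fall outside the rule, 1 rose and 8 fell in each tumour. Prdm16, which is known for its role in brown fat and stem cells, fell, at -5.28 ± 0.25 (adjusted p = 0.000133) and -4.20 ± 0.24 (adjusted p = 0.000151), and Prdm9, the meiotic H3K4 methyltransferase, fell, at -4.15 ± 0.32 (adjusted p = 0.000278) and -4.26 ± 0.32 (adjusted p = 0.000269). Hr, or hairless, rose by 1.99 ± 0.43 (adjusted p = 0.00967) and 2.48 ± 0.42 (adjusted p = 0.00408).

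The ratio of 2 related enzymes inside a library is free of scaling between libraries. Where the 2 enzymes differ in length, the ratio still carries the trend of fold change with gene length, which was not removed. The Ezh2 to Ezh1 ratio of reads per kilobase was 1.45 and 1.48 in H7 tumours and 1.88 and 1.89 in UNKC tumours, against 0.427 and 0.203 in normal pancreas. Ehmt2 to Ehmt1 was 3.17 and 3.44 in H7 tumours and 3.07 and 2.71 in UNKC tumours, against 0.861 and 0.709 in normal pancreas. In both pairs the more abundant enzyme of normal pancreas was the less abundant one of every tumour library. Nsd2 to Nsd3 was 1.84 and 1.96 in H7 tumours and 1.55 and 1.49 in UNKC tumours, against 0.235 and 0.336 in normal pancreas. Kdm1a to Kdm1b was 4.49 and 5.01 in H7 tumours and 6.51 and 6.86 in UNKC tumours, against 1.28 and 1.47 in normal pancreas. Setd1b to Setd1a was lower in the tumours, at 0.544 and 0.495 in H7 tumours and 0.337 and 0.343 in UNKC tumours, against 1.04 and 0.860 in normal pancreas.

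**Figure D4:**
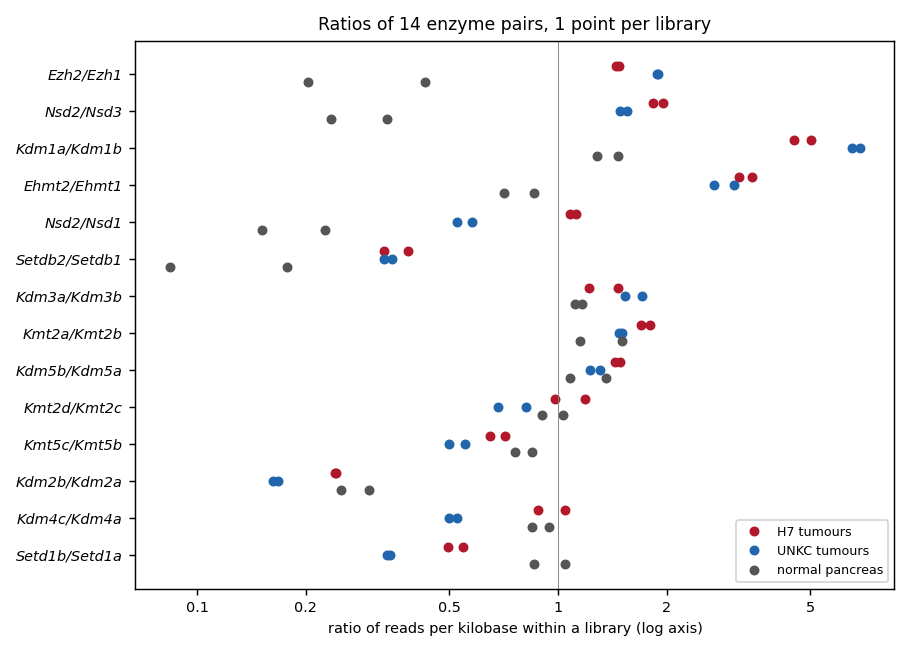
Ratio of reads per kilobase of 14 pairs of related enzymes within each library (horizontal log axis), with 1 point per library for H7 tumours, UNKC tumours and normal pancreas. The pairs Ezh2/Ezh1, Nsd2/Nsd3 and Ehmt2/Ehmt1 lie above 1 in all tumour libraries and under 1 in normal pancreas. The trend of fold change with gene length was not removed from these ratios.

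Per kilobase the order of the family differed between the tissues. Ehmt2 was the most abundant member in H7 tumours (mean 19.3 CPM per kilobase), followed by Kmt5a (15.6), Kdm1a (13.6), Setd3 (13.3) and Smyd2 (13.1). In UNKC tumours Kdm1a (18.8) and Ehmt2 (17.8) led, ahead of Setd3 (15.8) and Kmt5a (13.6). In normal pancreas the leading members were Kmt2e (23.7), Nsd1 (20.3), Setd5 (20.1), Kmt2c (19.9) and Kmt2d (19.2). In both tumours the leaders include members that rose, and in normal pancreas all 5 are genes that fell in both tumours. The ranking and the fold changes use the same libraries, so this overlap is not a separate result.

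These enzymes are encoded by long transcripts, and length moved with the fold changes. The 48 genes had a median length of 5244 bases, against 2741 over all tested genes, and 13 exceeded 8000 bases. In H7 tumours the median log2 fold change of all tested genes was 0.99 under 2000 bases, 0.26 from 2000 to 4000, -0.04 from 4000 to 8000 and -0.53 above 8000. In UNKC tumours the same medians were 1.01, 0.35, 0.04 and -0.40. Among 46 members Spearman's rho between length and fold change was -0.38 in H7 and -0.35 in UNKC tumours, across genes that share the same libraries.

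With that trend removed from the fit, 9 members rose and 15 fell in H7 tumours (28.7% and 21.2% of all genes), and 6 rose and 24 fell in UNKC tumours (27.9% and 18.8%). All 6 and all 4 rises were kept, with 15 of the 21 H7 falls and 22 of the 24 UNKC falls. The H7 falls that lost their call were Ash1l (-0.29), Kmt2a (-0.34), Kmt2d (-0.58), Setd2 (0.05), Kdm3b (-0.03) and Kdm4c (-0.48). The UNKC falls that lost it were Setd2 (-0.18) and Kdm3b (-0.09). Setd1b stayed lower at -1.93 in H7 and -2.83 in UNKC tumours, and Dot1l at -1.78 and -1.99. Nsd2, at 12796 bases one of the longest members, reached 1.83 in H7 and 1.13 in UNKC tumours, and passed in both. The part of length in the falls of the MLL-type genes in H7 tumours was not tested further.

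**Figure D5:**
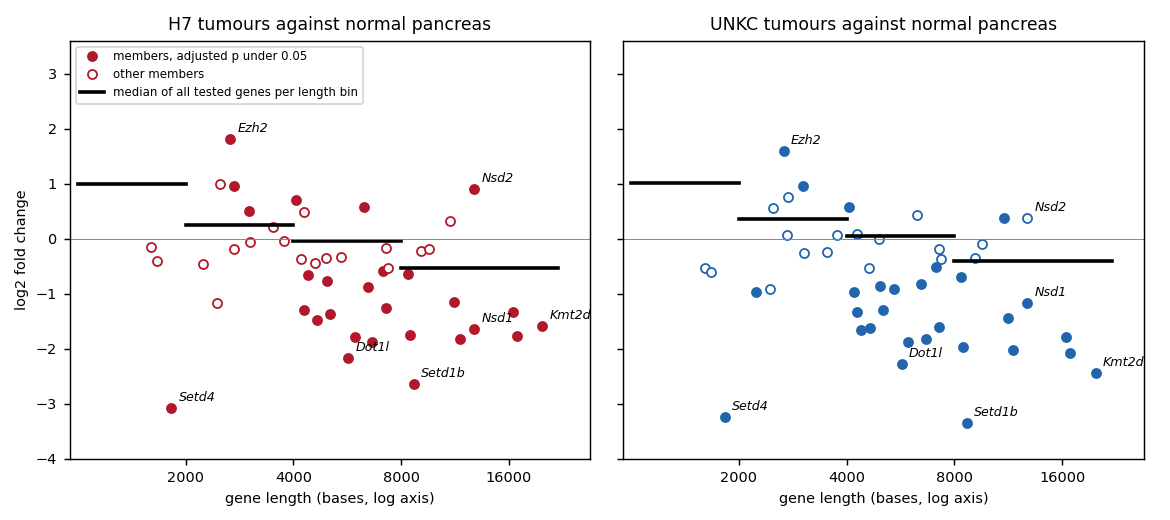
Log2 fold change against normal pancreas on the TMM scale (vertical axis) by gene length in bases (horizontal log axis) for 46 enzymes in H7 tumours (left) and UNKC tumours (right), filled where the adjusted p was under 0.05, with black lines at the median of all tested genes per length bin. Most filled points lie under the black line of their bin, and Nsd2 and Ezh2 lie above it. On total counts the falls turn positive together with most genes.

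Few members differed between the 2 tumours. In H7 against UNKC tumours, 2 members were higher and 1 lower, where 7.06% of all tested genes were higher and 11.1% lower, and the median log2 difference of the members was 0.13 against -0.02 for all genes. Kdm4c had 37.6 and 28.0 CPM in H7 tumours against 16.7 and 16.1 CPM in UNKC tumours, a difference of 1.00 ± 0.19 (adjusted p = 0.0190). Ezh1 was higher in H7 tumours by 0.59 ± 0.13 (adjusted p = 0.0322), and Nsd1 lower, at -0.48 ± 0.12 (adjusted p = 0.0434). None of the 3 kept its call when some single tumour library was left out: Ezh1 lost it without any one of the 4 tumour libraries (0.59 to 0.62), Nsd1 likewise (-0.53 to -0.41), and Kdm4c without the first H7 library or either UNKC library (0.79 to 1.03). Kmt2d had the widest difference among the H3K4 methyltransferases with reads in every group (0.85 ± 0.24, adjusted p = 0.0622) and did not pass, and none of that class passed. With the length trend removed, 3 members were higher and 0 lower (7.44% and 10.7% of all genes). Outside the family, Mllt3 (2.12 ± 0.33, adjusted p = 0.00919) and Psip1 (1.57 ± 0.26, adjusted p = 0.0124) were higher in H7 tumours.

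Smyd1, a heart and skeletal muscle methyltransferase, had 4 and 174 reads in H7 tumours, 12 and 808 in UNKC tumours and no read in normal pancreas. The second tumour library of each line was the high one, as for the skeletal muscle markers given above. The fit passed Smyd1 in no comparison (adjusted p = 0.655 in H7 and 0.430 in UNKC tumours against normal pancreas). The second libraries (2.23 CPM in H7 and 9.46 CPM in UNKC tumours) lay above the 1.41 CPM that a floor of 6 reads over the normal group stands for, and the first ones (0.058 and 0.133 CPM) lay under it, so no fold is given. Its promoter window is shown beside the others as an example of a window with few CG (chr6:71262282-71262531, minus strand, same source and capitals).
Smyd1 promoter: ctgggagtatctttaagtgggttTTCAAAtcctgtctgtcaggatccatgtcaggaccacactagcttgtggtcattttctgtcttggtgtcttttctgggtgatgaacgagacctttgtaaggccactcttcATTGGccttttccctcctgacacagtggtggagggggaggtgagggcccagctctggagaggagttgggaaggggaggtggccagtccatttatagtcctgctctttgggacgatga
It held 2 CG, 1 CCAAT box and 1 match to TTTGAA, against the median of 22.5 CG in the promoters of the family, in which 1 window each of Setd5, Kdm3a and Kdm4c held 0 CG.

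The reads of the Y-encoded member came from the UNKC libraries. Kdm5d, the H3K4 demethylase encoded on the Y chromosome, had 0 and 0 reads in H7 tumours, 406 and 52 in UNKC tumours and 0 and 0 in normal pancreas. It was at least 63.9-fold higher in UNKC than in H7 tumours against the floor of 6 reads (14.9-fold with the second UNKC library alone), and the fit did not pass it (adjusted p = 0.0570). Uty, a Y-encoded relative of the H3K27 demethylase Kdm6a, had 0 and 0, 469 and 53 and 0 and 0 reads in the same groups, and Ddx3y, a Y-linked helicase chosen after its values were seen, had 0 and 0, 1489 and 192 and 0 and 2. All 3 were higher in the first UNKC library than in the second. Eif2s3y, also on the Y chromosome, had 0 reads in every library. Xist, on the X chromosome, had 85.3 and 64.1 CPM in H7 tumours, 73.6 and 83.6 CPM in UNKC tumours and 993 and 915 CPM in normal pancreas. On the TMM scale Xist fell by -3.67 ± 0.20 (adjusted p = 0.000139) in H7 and -3.60 ± 0.20 (adjusted p = 0.000149) in UNKC tumours.

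Members of the same enzyme families that carry no symbol in the tumour tables were named from RefSeq and lie outside the 48 genes. Suv39h1, which gives trimethyl H3K9 at heterochromatin and lies on the X chromosome, had 724 and 944 reads in H7 tumours, 2456 and 2417 in UNKC tumours and none in normal pancreas. That is at least 8.05-fold higher in H7 and 19.7-fold higher in UNKC tumours than the floor of 6 reads over the normal group. It was lower in H7 than in UNKC tumours, at -1.30 ± 0.18 (adjusted p = 0.00998). Kdm5c, the X-encoded counterpart of Kdm5d, had 59.3 and 52.2 CPM in H7 tumours, 58.2 and 60.5 CPM in UNKC tumours and 87.9 and 83.0 CPM in normal pancreas, and fell, at -0.62 ± 0.13 (adjusted p = 0.00889) and -0.53 ± 0.13 (adjusted p = 0.0170). Kdm6a, or UTX, had 28.8 and 25.2 CPM in H7 tumours, 27.7 and 29.0 CPM in UNKC tumours and 35.2 and 52.0 CPM in normal pancreas. It fell in H7 tumours (-0.69 ± 0.21, adjusted p = 0.0348), and the UNKC change was -0.62 ± 0.21 (adjusted p = 0.0523).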

How the data were processed

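RNA-seq counts of 6 libraries in 3 groups of 2 were analysed. As deposited by the authors, each sample's file holds raw read counts per gene ID, made with STAR and featureCounts on mm10 per the submitters' processing notes. The authors' 2 comparison tables hold fragment counts, gene length in bases, TPM computed by the authors from those counts (not used for tests), and log2 fold changes and p-values that the authors took from DESeq2 1.18.1. The read counts held both mates of a pair (median ratio to the tables' counts 1.98 to 2.00), so a count of 2 can be 1 molecule. Strand and counting options are not given in the sources used here.

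The 16306 genes that filterByExpr kept were scaled by TMM (2.07 to 2.23 in tumours, 0.179 and 0.256 in normal pancreas) and tested in edgeR 4.0.16 (R 4.3.3, quasi-likelihood, legacy = FALSE) over all 6 libraries, with p-values adjusted by Benjamini-Hochberg over the whole table and called under 0.05. Every adjusted p and log2 fold change ± SE is from this fit unless another tool is named. The length trend was removed as an offset (robust loess, span 0.5). A fold against a group with no read is a lower bound against 6 reads (3 read pairs) over that group, which covers counting error only. The fit was tested on simulated counts. DESeq2 1.42.0 was among 19 listed alternatives, and 1 was added after seeing the data (tumours thinned to the normal depth without the abundant genes). Tables and plots used Python 3.11.15, pandas 2.3.3 and matplotlib 3.10.9.

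The members, roles and partner lists were chosen with earlier results of these data known. Library values are given for members that passed in a comparison with at least 5 CPM. For partner lists, up to 2 rises and 2 falls are given per list and comparison. Setd7, Wdr5, Eed, Suz12, Ddx3y, Eif2s3y and Xist were named beyond that rule, with values seen.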

Additional observations from a re-analysis of the deposited data

Results flagged for a closer look

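The difference between the 2 tumour lines itself passed the test in edgeR for 3 members. Kdm4c was higher in H7 than in UNKC tumours by 1.00 on the log2 scale, and Ezh1 by 0.59, with both H7 libraries above both UNKC libraries in each case. Nsd1 was lower in H7 tumours, at -0.48, with both H7 libraries below both UNKC libraries. For each of them at least 3 of the 4 tumour libraries, left out singly, end the call.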

How the results depend on the processing

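Under the 20 alternatives, single-gene results mostly kept their direction and call, except with total counts. That setting kept 6 of 27 member calls in H7 tumours and 4 of 28 in UNKC tumours. Against 6 rises in H7 tumours, the count was 1 with upper-quartile factors, 43 with total counts, 3 with RLE factors, 3 in a fit of the 4 libraries compared, 3 with counts halved, 3 with the deposited tables' counts, 3 with thinned tumours and 1 with tumours thinned without the abundant genes; leaving out single libraries gave 1 to 8. H7 falls became 0 with total counts. Against 4 rises in UNKC tumours, the count was 2 with upper-quartile factors, 44 with total counts, 2 with RLE factors, 2 in the 4-library fit, 2 with thinned tumours and 0 with tumours thinned without the abundant genes, and 2 to 8 with single libraries left out; UNKC falls became 0 with total counts. Apart from total counts, the alternatives called 21.1% to 33.6% of all genes higher and 15.3% to 30.9% lower in H7 tumours, 20.8% to 33.4% and 12.9% to 28% in UNKC tumours, and 1.09% to 16.7% and 2.23% to 16.5% between the tumours.

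Between the tumours, the members higher in H7 (2) became 9 in DESeq2, 1 with total counts, 5 in the 4-library fit and 0 in the thinning without abundant genes (0 to 5 with single libraries left out). The members lower in H7 (1) became 3 in DESeq2, 2 in the 4-library fit, and 0 with total counts, RLE factors, abundant genes left out, no filter, the length trend removed or the thinning without abundant genes (0 to 1 with single libraries left out). The replicate numbers are not stated to pair samples: deviations of same-numbered samples correlated at -0.012 (H7 and normal), -0.023 (UNKC and normal) and 0.526 (H7 and UNKC). With the replicate number as a block, 1 member was higher and 2 lower between the tumours, where Kdm4c kept its call and Ezh1 and Nsd1 lost theirs; 5 rose and 21 fell in H7, and 4 rose and 24 fell in UNKC tumours.

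Total counts turned all 21 H7 falls and all 24 UNKC falls positive. Apart from that setting, among values called with or without the alternative, signs turned for Kmt5b (0.52), Setd2 (0.046) and Kdm7a (0.60) in H7 tumours with the length trend removed. There, 4 uncalled members in each tumour also turned (0.020 to 0.42 in H7 and 0.076 to 0.49 in UNKC tumours). With tumours thinned without abundant genes, signs turned for Kdm5b (-0.031) and Kdm1a (-0.11) in H7 and for Setd3 (-0.59) and Kdm5a (-0.14) in UNKC tumours. Smyd4 in UNKC tumours was -1.07 and 1.98 with normal library 1 or 2 left out, and rests there on 2 and 16 reads. Apart from construction (fewer genes or samples), the cause was not tested. The low read number of normal pancreas limits members such as Setdb2, Suv39h2, Kdm8 and Smyd4, where a missed threshold does not show equal levels.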

Other observations

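Of the 48 genes, 14 overlap another counted gene in the RefSeq annotation, by 22 bases (Smyd4 with Rpa1) to 18397 bases (Suv39h2 with Dclre1c). The strand used in counting is not given in the sources used here, so reads in the shared stretches may be split or lost. Kdm1b shares 513 bases with Dek and Kdm1a 4193 bases with Luzp1. Setd1b, Kmt2d, Kmt2c, Ezh2, Ezh1 and Dot1l overlap no counted gene there.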
